A study of Mus musculus with 24 samples.

Results

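Genes of vessels, podocytes and the thick ascending limb were among those that parted endothelial isolates from proximal tubules in kidneys with acute injury. Most proximal tubule genes did not pass the test between the isolations, nor did most of all genes tested. The endothelial isolates were collected with CD31+ microbeads and the proximal tubules by microdissection, both after enzymatic digestion of mouse kidney. All mice were of the FVB strain, and the labels name no transgene, drug or age. The comparison takes the 12 libraries labelled acute kidney injury (IRI in the sample names) out of 23 libraries of the series: 6 of endothelial isolates and 6 of proximal tubules, each with 3 from females and 3 from males. Both sides therefore carry the injury, and its duration and the time after it are not given in the sources used here. Sham kidneys, labelled as without injury, gave 5 endothelial isolates (2 from females, 3 from males) and 6 proximal tubule libraries (3 from each sex). The protocol takes RNA from 3 male and 3 female mice for every group. That does not say whether the same mouse gave both isolations, and each library is treated here as its own mouse. The sample names reuse the same numbers for injured endothelial and tubule libraries, without a statement that a repeated number is a repeated mouse.

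CD31 is the protein of Pecam1, an adhesion molecule of endothelial junctions that leukocytes and platelets also carry. Renal endothelium differs by site: glomerular capillaries filter blood beside podocytes and mesangial cells, peritubular capillaries and vasa recta take up what the tubules reabsorb, and arteries and lymphatics have programs of their own. Proximal tubule cells reabsorb most of the filtered sodium, glucose, phosphate and protein. In bulk samples such as these, fewer cells of a type and less RNA per cell cannot be told apart.

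The injured libraries held 41703814 to 54354257 estimated reads, with 7.62 to 12.1% in mitochondrial genes in endothelial isolates and 9.98 to 16.2% in tubules. Levels are given as CPM, read counts scaled by the normalized library size, for comparing 1 gene between libraries; different genes are compared only as TPM, which is scaled by transcript length. Where 3 levels are given for an isolation they are the lowest, the median and the highest of its 6 injured libraries. A log2 difference is endothelial isolates minus tubules, with equal weight to females and males and with its SE, and a gene passed at an adjusted p under 0.05 in edgeR's quasi-likelihood test over 21206 genes.

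The endothelial markers Pecam1, Cdh5 and Kdr parted the isolations in every library, but neither isolation held RNA of a single cell type. Pecam1 (chromosome 11, 106654217 to 106750628, GRCm38) had 98.0, 137 and 168 CPM in endothelial isolates and 24.5, 42.8 and 56.4 CPM in tubules. Cdh5, the VE-cadherin of endothelial junctions, had 57.2, 97.0 and 247 CPM in endothelial isolates and 8.63, 23.1 and 47.4 CPM in tubules. Kdr, the main receptor for VEGF, had 80.2, 164 and 346 CPM in endothelial isolates and 15.7, 37.5 and 61.0 CPM in tubules. For each of these 3 genes all 6 endothelial isolates stood above all 6 tubule libraries. The log2 differences were 1.69 ± 0.30 for Pecam1, 2.21 ± 0.45 for Cdh5 and 2.40 ± 0.43 for Kdr, with adjusted p of 0.0063, 0.010 and 0.0062 by edgeR.

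Proximal tubule RNA was abundant on both sides. Lrp2, the endocytic receptor megalin, had 574, 1105 and 3390.1 CPM in endothelial isolates and 709, 1664 and 2932 CPM in tubules. Slc34a1, the sodium-phosphate cotransporter of the brush border, had 1180.3, 2842 and 4904 CPM in endothelial isolates and 1868, 4048 and 4850.4 CPM in tubules. Both sets of libraries overlapped for either gene, and neither gene passed (log2 differences −0.18 ± 0.23 and −0.50 ± 0.18, edgeR adjusted p 0.81 and 0.14). The 20 proximal tubule markers summed to 17873 to 31176 CPM in endothelial isolates and 23506 to 45621 CPM in tubules, again with overlap. Endothelial RNA was in turn present in the tubules: the 15 pan-endothelial markers summed to 821 to 1848 CPM in endothelial isolates and 175 to 480.2 CPM in tubules, without overlap.

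**Figure D1:**
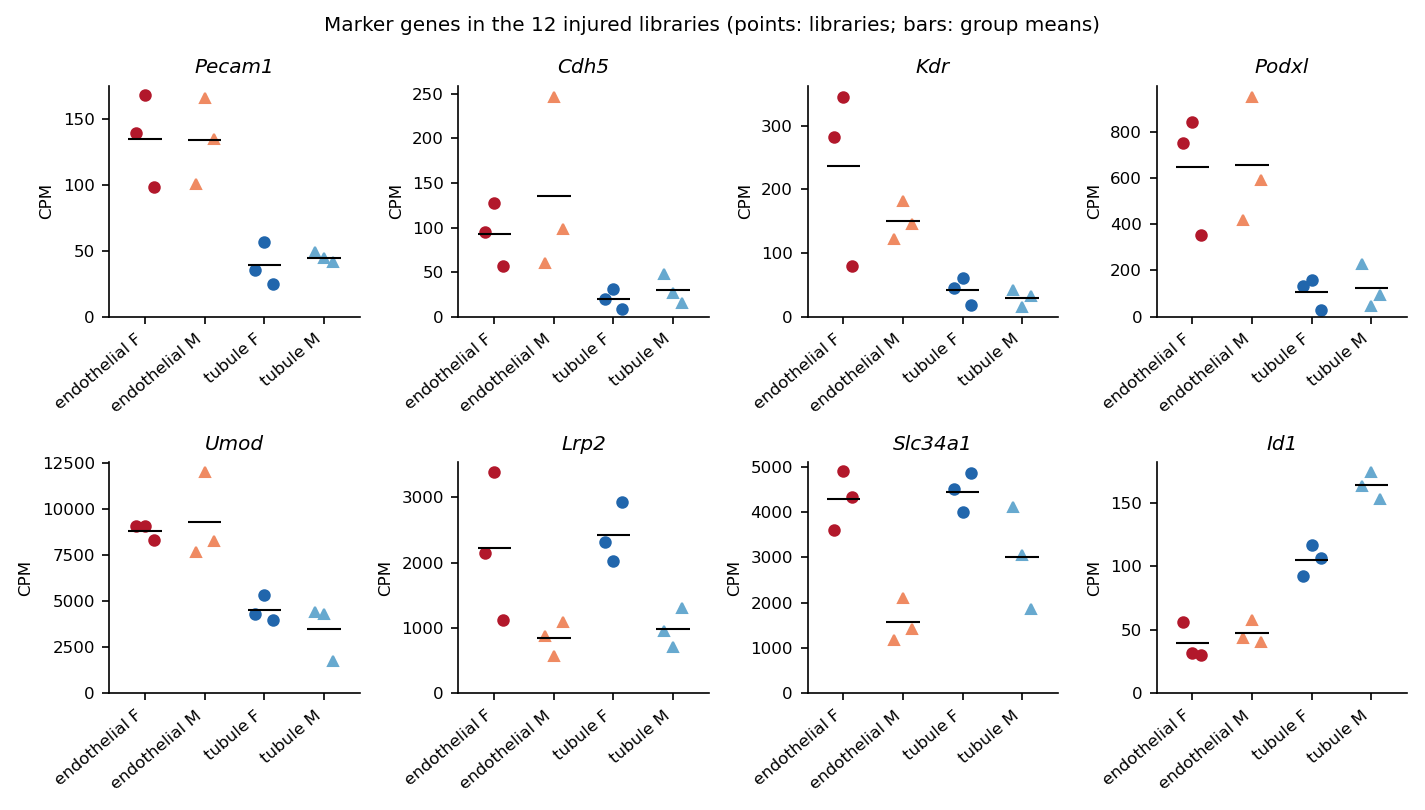
CPM (vertical axes, linear from 0) of 8 genes in each of the 12 injured libraries, grouped by isolation and sex (F, female; M, male); points are libraries and bars are means of 3. Pecam1, Cdh5, Kdr, Podxl and Umod stand higher in every endothelial isolate than in any tubule library, Id1 stands lower, and Lrp2 and Slc34a1 overlap.

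Of the 21206 genes tested, 826 were higher and 169 lower in injured endothelial isolates than in injured tubules, which is 3.9% and 0.797% of all genes and 4.69% together. The higher genes differed more: their median log2 difference was 1.79 and 309 of them lay beyond 2, while the lower genes had a median of −0.70 and 19 of them lay beyond −2. Over all tested genes the median was 0.02. In 469 of the higher and 41 of the lower genes the libraries did not overlap, as in 3.68% of all genes. All 826 higher genes and 167 of the 169 lower genes had the same sign in females and in males. Protein-coding genes made up 788 of the higher and 149 of the lower genes. The lower genes also held 6 of the 21 mitochondrial tRNAs tested. The mitochondrial shares given above ranged higher in the tubule libraries, with overlap, and their part in this was not tested.

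The count of genes called depended on single libraries. It was 554 and 462 without female endothelial replicate 1 or 2, 433 and 410 without female tubule replicate 1 or 3, and 592 and 399 without male tubule replicate 1 or 2. It was 1622 (951 higher, 671 lower) without male endothelial replicate 2, and 1574 (1157 higher, 417 lower) without male tubule replicate 3. Without one of the other 4 libraries it was 706 to 891. Male endothelial replicate 2 and male tubule replicate 3 stood apart from the rest of their groups: pairs with one of them differed over genes by a chi-square of 428 to 534 per degree of freedom, against 61.1 for the remaining male endothelial pair and 60.6 for the remaining male tubule pair.

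Male libraries differed in genes of tubular injury, and replicate 1 was the one that went opposite ways in the 2 isolations. Replicate 2 was high in Cdkn1a and Krt20 and low in Keg1 in both isolations, and replicate 3 was the reverse in both. Cdkn1a, the cell cycle inhibitor p21, had 45.6, 830.0 and 43.8 CPM in male endothelial replicates 1, 2 and 3, against 688, 613 and 24.9 CPM in male tubule replicates 1, 2 and 3. Krt20, a keratin of injured tubules, had 18.7, 199 and 7.82 CPM in the male endothelial replicates and 564, 591 and 12.4 CPM in the male tubule replicates. Keg1, a gene abundant in healthy proximal tubule, had 1649, 40.2 and 1422 CPM in the male endothelial replicates and 187, 324 and 1885 CPM in the male tubule replicates. Thus male endothelial replicate 2 and male tubule replicates 1 and 2 were high in Cdkn1a and Krt20 and low in Keg1, and in the 6 female libraries Cdkn1a lay between 5.52 and 33.8 CPM. These 3 genes were chosen after their values were seen. Without male endothelial replicate 2 and male tubule replicate 3, a choice also made after seeing the data, 3215 genes were higher and 2210 lower, and these included 924 of the 995 genes. That setting sets 2 male endothelial isolates low in Cdkn1a against 2 male tubule libraries high in it. Exchanged labels and unequal injury between mice cannot be told apart here, and the male values are given under the labels as they stand.

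**Figure D2:**
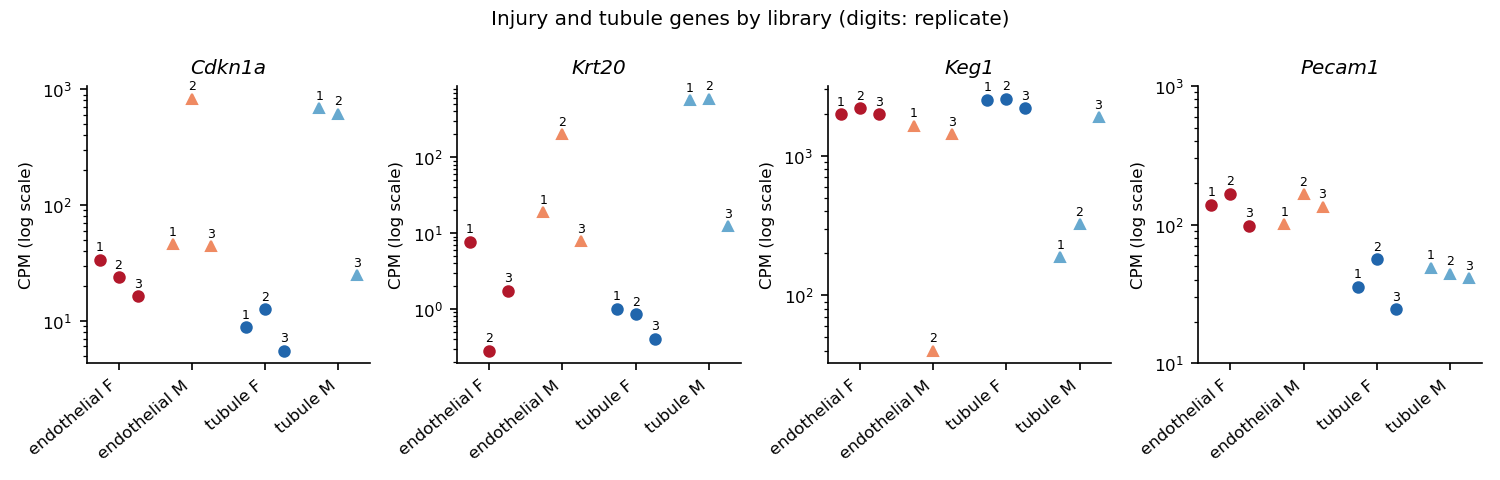
CPM on log axes of Cdkn1a, Krt20, Keg1 and Pecam1 in each injured library, grouped by isolation and sex; the digit beside a point is its replicate. Male endothelial replicate 2 and male tubule replicates 1 and 2 are high in Cdkn1a and Krt20 and low in Keg1, while Pecam1 is higher in every endothelial isolate than in any tubule library.

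The genes with the largest differences toward the endothelial isolates belong to several cell types. Among genes without overlap the 12 that led were Ccr7, Slc14a1, Slc14a2, Gimap3, Itga8, Ptn, Ggt5, Shisa3, Nell2, Ddn, Sema3e and Wif1, with log2 differences of 2.82 to 4.48. Slc14a1, the urea transporter of the vasa recta and of red cells, had 4.31, 11.5 and 15 CPM in endothelial isolates and 0.0225, 0.476 and 1.38 CPM in tubules (4.14 ± 0.74, edgeR adjusted p 0.0060). Slc14a2, the urea transporter of thin limbs and inner medullary collecting duct, had 5.31, 29.0 and 35.4 CPM in endothelial isolates and 0, 1.48 and 2.70 CPM in tubules (4.13 ± 1.02, adjusted p 0.025). Slc14a1 passed in all 12 fits that left out 1 injured library, and Slc14a2 in 7 of them.

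Genes of blood and glomerular cells were also among these 12. Ccr7, the receptor that guides lymphocytes and dendritic cells to lymphoid tissue, had 0.954, 1.85 and 24.1 CPM in endothelial isolates and 0.0204, 0.137 and 0.589 CPM in tubules (4.48 ± 1.07, edgeR adjusted p 0.022). Its highest value was male endothelial replicate 2, and the other 5 endothelial isolates had 0.954 to 3.22 CPM. Gimap3, a GTPase of lymphocytes, had 2.13, 3.21 and 17.1 CPM in endothelial isolates and 0.0991, 0.348 and 0.695 CPM in tubules (3.65 ± 0.62, adjusted p 0.0050). Itga8, the integrin chain of mesangial cells, had 32.7, 54.3 and 122 CPM in endothelial isolates and 0.315, 5.86 and 15.8 CPM in tubules (3.20 ± 0.77, adjusted p 0.022). Ddn, the podocyte protein dendrin, had 12.5, 16.8 and 24.4 CPM in endothelial isolates and 0.270, 2.82 and 3.72 CPM in tubules (2.91 ± 0.69, adjusted p 0.022). Every endothelial isolate exceeded every tubule library for each of them, which the rule that chose them required.

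The remaining genes encode secreted or membrane proteins. Ptn, the growth factor pleiotrophin, had 17.4, 21.7 and 58.4 CPM in endothelial isolates and 0, 2.31 and 8.68 CPM in tubules. Sema3e, the ligand of plexin D1, had 7.22, 16.0 and 21.4 CPM in endothelial isolates and 0.0450, 2.61 and 3.52 CPM in tubules. Wif1, a secreted Wnt inhibitor, had 2.74, 5.65 and 11.7 CPM in endothelial isolates and 0, 0.764 and 2.25 CPM in tubules. These differences depended more on single libraries: Ptn passed in 4 of the 12 fits that left out 1 library, Sema3e in 4, Shisa3 in 5, Nell2 in 9 and Wif1 in 8. Ggt5, which cleaves leukotriene C4, had 4.78, 9.59 and 12.1 CPM in endothelial isolates and 0.180, 1.16 and 2.33 CPM in tubules and passed in 12 (3.05 ± 0.61, edgeR adjusted p 0.010).

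Toward the tubules the differences were smaller. Among those that led were Gm10800, Id1, Akr1c18, Zfp697, Osgin1, Lhx1, Lrig3, Plekhf1, Gramd1b, Ppp1r16b and Arhgap42, and apart from Gm10800 their log2 differences lay between −1.60 and −0.81. Id1, an inhibitor of basic helix-loop-helix factors and a classic target of BMP signaling, had 30.4, 42.0 and 58.0 CPM in endothelial isolates and 92.5, 135 and 175 CPM in tubules (−1.60 ± 0.23, edgeR adjusted p 0.0040). Osgin1, a growth inhibitor induced by oxidative stress, had 19.3, 31.4 and 42.6 CPM in endothelial isolates and 47.3, 62.1 and 77.8 CPM in tubules (−1.05 ± 0.20, adjusted p 0.0075). Lhx1, a LIM homeobox factor of the developing nephron, had 5.73, 9.58 and 10.2 CPM in endothelial isolates and 11.1, 18.0 and 25.7 CPM in tubules (−0.95 ± 0.17, adjusted p 0.0063). Each of these 3 genes was lower in every endothelial isolate than in any tubule library, which the rule that chose them required. Each passed in all 12 fits that left out 1 library.

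Akr1c18, an enzyme that inactivates progesterone, had 3.16, 8.85 and 10.1 CPM in endothelial isolates and 10.5, 17.7 and 30.3 CPM in tubules and passed in 2 of these 12 fits. Gm10800, a predicted gene, had the largest fitted difference (−7.72 ± 1.19, edgeR adjusted p 0.0041) on few reads. It had 9 estimated reads over all 6 endothelial isolates, against 0.811, 2.22 and 47.9 CPM in tubules, where the highest value was female tubule replicate 2. Reads of such a predicted gene may be shared with near-identical copies, so its level is uncertain.

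**Figure D3:**
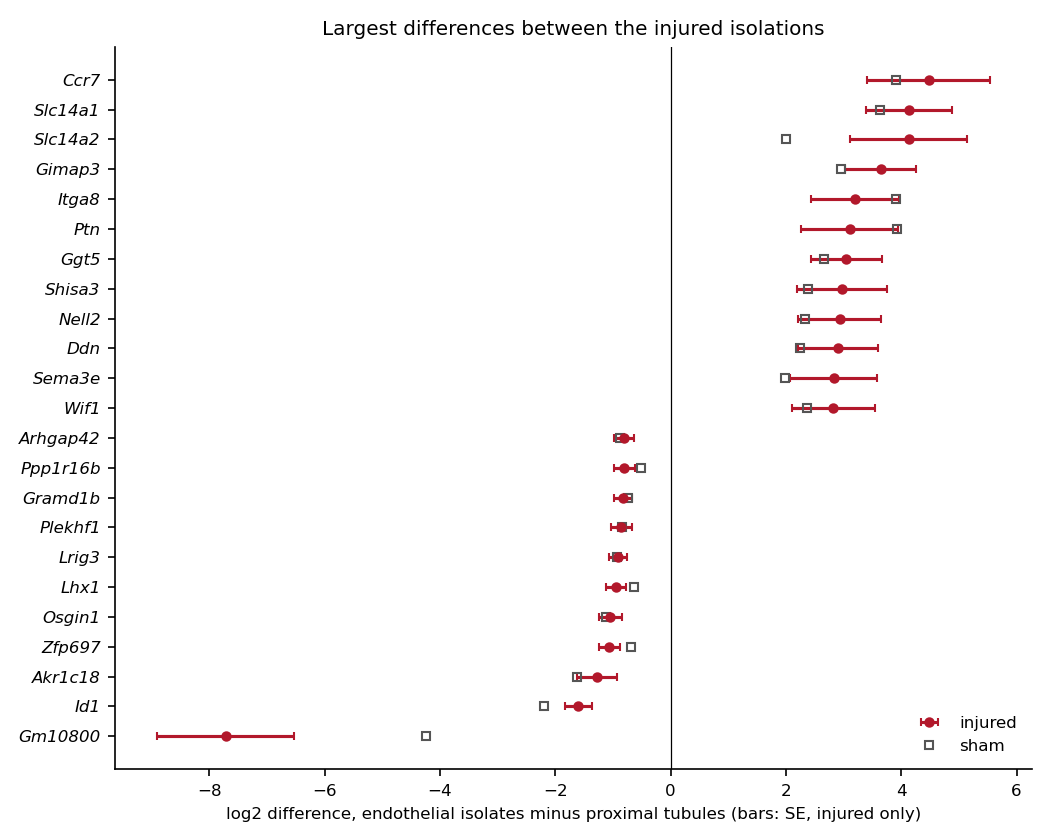
Log2 difference, endothelial isolates minus proximal tubules, of the 23 genes named above among those with the largest differences without overlap: red circles with SE bars for injured kidneys, open squares for sham kidneys. All 23 have the same sign in sham kidneys, and those toward the endothelial isolates (2.82 to 4.48) are larger than those toward the tubules except Gm10800.

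All 15 pan-endothelial markers were higher in the injured endothelial isolates, beside 3.9% of all genes. Their log2 differences ran from 1.69 to 2.52 with a median of 2.06, against 0.02 over all tested genes, and 12 of the 15 did not overlap. Eng, the TGF-beta coreceptor endoglin, had 96.8, 136 and 225 CPM in endothelial isolates and 16.0, 31.7 and 55.4 CPM in tubules (2.21 ± 0.35, edgeR adjusted p 0.0042). Tie1, a receptor of the angiopoietin system, had 46.5, 72.8 and 92.8 CPM in endothelial isolates and 11.2, 13.9 and 25.4 CPM in tubules (2.15 ± 0.37, adjusted p 0.0050). Cd34, a sialomucin of capillaries, had 25.2, 52.7 and 80.7 CPM in endothelial isolates and 4.76, 11.6 and 27.6 CPM in tubules, with overlap (2.14 ± 0.35, adjusted p 0.0046). Egfl7, a matrix protein that endothelium secretes, differed by 1.82 ± 0.32 (adjusted p 0.0053). Between 11 and 15 of these markers passed when 1 library was left out, and 14 passed without male endothelial replicate 2 and male tubule replicate 3.

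Genes of glomerular and arterial endothelium were mostly higher. Of 6 glomerular endothelial genes 4 were higher and none lower (median 1.98): Ehd3, a membrane-trafficking protein of glomerular capillaries, had 52.3, 110.4 and 272 CPM in endothelial isolates and 6.31, 20.4 and 47.1 CPM in tubules (2.63 ± 0.53, edgeR adjusted p 0.010), and Sost (2.97 ± 0.81), Pi16 (2.76 ± 0.58) and Tspan8 (1.04 ± 0.24) also passed. Of 10 arterial genes 7 were higher and none lower (median 2.00). Among them Efnb2, the ligand ephrin B2, had 30.0, 51.4 and 93.5 CPM in endothelial isolates and 9.95, 15.2 and 24.9 CPM in tubules (1.80 ± 0.36, adjusted p 0.0091), the transcription factor Sox17 had 16.9, 26.3 and 56.5 CPM in endothelial isolates and 2.48, 6.92 and 10.2 CPM in tubules (2.14 ± 0.44, adjusted p 0.011), and the matrix gene Fbln2 differed by 2.09 ± 0.47 (adjusted p 0.017). The glomerular count was 2 without female tubule replicate 1 or 3. The arterial count was 3 without female endothelial replicate 1 or 2, male endothelial replicate 3, female tubule replicate 3, or male tubule replicate 1 or 2, and 4 without female tubule replicate 1.

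Of 6 lymphatic genes Flt4, the receptor for VEGF-C (1.94 ± 0.46), and Pdpn were higher and none lower (median 1.95). Pdpn encodes podoplanin, which podocytes also carry, and had the smallest adjusted p of all genes (4.2e-04 by edgeR). It had 22.8, 29.2 and 45.1 CPM in endothelial isolates and 5.08, 6.77 and 13.7 CPM in tubules (1.96 ± 0.21). Lyve1, the hyaluronan receptor of lymphatics, reached no more than 1.69 CPM in any injured library. Of 7 peritubular and venous genes 2 were higher and none lower (median 0.82). Slco2a1, the prostaglandin transporter, had 37.0, 90.0 and 109 CPM in endothelial isolates and 12.7, 28.4 and 63.6 CPM in tubules (1.36 ± 0.33, adjusted p 0.023), and Ephb4, the venous receptor of ephrin B2, differed by 0.58 ± 0.15 (adjusted p 0.033). Plvap, the protein of fenestral diaphragms, had 58.6, 79.9 and 154 CPM in endothelial isolates and 19.7, 45.4 and 71.1 CPM in tubules and did not pass (1.09 ± 0.49, adjusted p 0.25). The lymphatic count was 1 without female tubule replicate 1 or 3 or male tubule replicate 2. The peritubular and venous count was 0 without female endothelial replicate 1 or 2, female tubule replicate 1 or 3, or male tubule replicate 2; 1 without male endothelial replicate 3, female tubule replicate 2, or male tubule replicate 1; 4 without male tubule replicate 3. Whether the vascular beds differ from each other was not tested.

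Receptors of vascular growth factors were higher, as were 2 of their ligands. In the VEGF and angiopoietin list 9 of 15 genes were higher and none lower (median 1.74): the receptors Kdr, Flt1, Flt4, Tie1, Tek and Nrp1, the phosphatase Ptprb that restrains Tek, and the ligands Vegfc (1.04) and Angpt2. Tek, the angiopoietin receptor, had 24.4, 49.8 and 99.2 CPM in endothelial isolates and 4.19, 11.7 and 29.2 CPM in tubules, with overlap (2.04 ± 0.41, edgeR adjusted p 0.0100). Angpt2, which endothelial cells store and release, had 10.8, 18.1 and 40.3 CPM in endothelial isolates and 0.721, 5.19 and 8.25 CPM in tubules (2.19 ± 0.56, adjusted p 0.032). The ligands Vegfa (0.36) and Pgf (1.53) did not pass. The count was 4 without male tubule replicate 2, and 5 without female tubule replicate 3.

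Of 13 Notch pathway genes 3 were higher and none lower (median 0.76). The receptor Notch4 had 20.7, 37.4 and 48.0 CPM in endothelial isolates and 4.64, 7.94 and 11.8 CPM in tubules (2.18 ± 0.41, edgeR adjusted p 0.0071), and the ligands Jag2 (2.11 ± 0.44) and Dll4 (1.36 ± 0.37) passed beside it. The 14 genes of BMP and TGF-beta signaling moved in both directions, with 3 higher, 1 lower and a median of −0.20. Eng was higher, as was Acvrl1, the receptor ALK1, which had 26.04, 31.7 and 47.2 CPM in endothelial isolates and 4.32, 6.57 and 13.0 CPM in tubules (2.14 ± 0.35, adjusted p 0.0043). The inhibitor Smad6 was higher by 1.27 ± 0.27 (adjusted p 0.012). Id1, a target of the same signaling, was the lower gene, and its relatives Id2 (−0.57) and Id3 (−0.94) did not pass.

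Transcription factors of the endothelial lineage were mostly higher too. Of 21 tested 12 were higher and none lower (median 1.72), and all 21 differences were positive. Erg, an ETS factor that maintains endothelial identity, had 8.54, 16.8 and 20.6 CPM in endothelial isolates and 2.05, 4.22 and 7.90 CPM in tubules (1.82 ± 0.43, edgeR adjusted p 0.022). Its ETS relatives Fli1 (1.92 ± 0.40, adjusted p 0.012) and Elk3 (1.62 ± 0.31, adjusted p 0.0077) and the adaptor Lmo2 (1.72 ± 0.38, adjusted p 0.015) passed, as did Ets1, Sox17, Sox18, Hhex, Tal1, Lyl1, Mef2c and Foxc2. The count was 5 without female tubule replicate 1 or 3 or male tubule replicate 2.

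ETS factors bind DNA around a GGAA core, so the promoters of 3 pan-endothelial genes are shown with matches to AGGAAG on either strand in capitals. They are windows of 300 bases from the RefSeq promoters of GRCm38.p6, 250 before the annotated start and 50 from it, written 5′ to 3′ along the gene.
Eng (chr2:32646345-32646644, plus strand): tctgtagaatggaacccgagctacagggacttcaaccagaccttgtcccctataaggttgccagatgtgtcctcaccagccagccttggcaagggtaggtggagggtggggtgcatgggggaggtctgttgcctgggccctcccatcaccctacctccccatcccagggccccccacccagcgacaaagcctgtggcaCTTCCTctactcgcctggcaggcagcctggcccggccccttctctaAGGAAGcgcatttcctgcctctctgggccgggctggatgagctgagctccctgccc
Tie1 (chr4:118489800-118490099, minus strand): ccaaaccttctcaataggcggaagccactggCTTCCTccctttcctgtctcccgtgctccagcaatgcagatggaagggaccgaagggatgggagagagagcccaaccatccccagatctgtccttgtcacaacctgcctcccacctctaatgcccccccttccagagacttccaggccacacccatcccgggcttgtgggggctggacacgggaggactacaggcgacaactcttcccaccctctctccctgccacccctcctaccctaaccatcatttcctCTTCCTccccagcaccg
Emcn (chr3:137340828-137341127, plus strand): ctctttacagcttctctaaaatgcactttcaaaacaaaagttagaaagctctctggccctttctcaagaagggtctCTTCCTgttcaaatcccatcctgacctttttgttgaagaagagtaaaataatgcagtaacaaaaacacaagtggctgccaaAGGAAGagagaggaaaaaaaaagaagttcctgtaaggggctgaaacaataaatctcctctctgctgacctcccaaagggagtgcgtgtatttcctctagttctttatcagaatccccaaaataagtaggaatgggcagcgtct
Each window holds 2 matches. Of the 15 pan-endothelial genes 11 have an entry, and 8 of these 11 hold the letters, as do 35.4% of all 32851 promoters. A match describes letters and is not a binding site shown by these data. Emcn, the sialomucin endomucin, had 78.8, 109 and 239.5 CPM in endothelial isolates and 11.8, 27.3 and 54.1 CPM in tubules (2.11 ± 0.42, edgeR adjusted p 0.0095).

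Of 18 endothelial junction and adhesion genes 10 were higher and none lower, and all 18 differences were positive (median 1.90). Icam2, a leukocyte ligand at endothelial junctions, had 5.73, 16.0 and 25.6 CPM in endothelial isolates and 1.10, 2.24 and 6.17 CPM in tubules, with overlap (2.54 ± 0.40, edgeR adjusted p 0.0041). Cldn5, the claudin of vascular tight junctions, had 25.3, 34.5 and 72.7 CPM in endothelial isolates and 0.540, 6.36 and 17.8 CPM in tubules, without overlap (2.52 ± 0.54, adjusted p 0.012). The inducible adhesion genes Icam1 (0.23), Vcam1 (0.86), Sele (1.80) and Selp (1.91) did not pass. Without male endothelial replicate 2, Icam1, Sele and Selp had log2 differences of −0.26, −0.33 and −0.18, still without passing.

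Of 16 genes of vascular tone and coagulation 5 were higher and none lower (median 1.56). Procr, the protein C receptor, had 9.30, 12.8 and 16.1 CPM in endothelial isolates and 1.64, 2.97 and 4.49 CPM in tubules (2.09 ± 0.39, edgeR adjusted p 0.0075). The others were F8, coagulation factor VIII (1.82 ± 0.38), the endothelin receptor Ednrb (1.91 ± 0.48), Nos3, the endothelial nitric oxide synthase (1.82 ± 0.46), and Ece1, the endothelin-converting enzyme (0.63 ± 0.17). Of 15 genes of sphingosine and other G protein-coupled receptors 5 were higher and 1 lower (median 1.73). Adgrl4, an adhesion receptor of vessels, had 68.9, 82.4 and 107 CPM in endothelial isolates and 12.2, 17.8 and 38.6 CPM in tubules (2.03 ± 0.31, adjusted p 0.0041), and the adrenomedullin receptor subunits Calcrl (2.16 ± 0.41) and Ramp2 (1.22 ± 0.29) passed with it. Lpar6, a lysophosphatidic acid receptor, was lower, with 4.09, 6.09 and 8.43 CPM in endothelial isolates and 8.85, 10.6 and 11.2 CPM in tubules (−0.72 ± 0.19, adjusted p 0.032). The tone and coagulation count was 2 without female endothelial replicate 1 or 2, male endothelial replicate 2, female tubule replicate 1 or 3, or male tubule replicate 2, and 8 without male endothelial replicate 1. The receptor count was 2 higher and 0 lower without female tubule replicate 3 or male tubule replicate 2, and 3 higher and 0 lower without female tubule replicate 1.

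Of 17 basement membrane and matrix genes 6 were higher and none lower, with all 17 differences positive (median 1.12). Sparc, a collagen-binding matrix protein, had 233, 336 and 449 CPM in endothelial isolates and 22.7, 93.1 and 127 CPM in tubules, without overlap (2.04 ± 0.39, edgeR adjusted p 0.0076). Mmrn2 (2.25 ± 0.38), the laminin chain Lamb2 (1.61 ± 0.33) and the collagen Col15a1 (2.13 ± 0.48) passed as well. The count was 3 without female tubule replicate 3 or male tubule replicate 2. Of 11 genes of caveolae and fatty acid uptake the cavins Cavin1 (1.31 ± 0.28), Cavin2 (0.97 ± 0.25) and Cavin3 (1.81 ± 0.37) were higher and none lower (median 0.97), while Cav1, the caveolin they coat, did not pass (0.76).

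**Figure D4:**
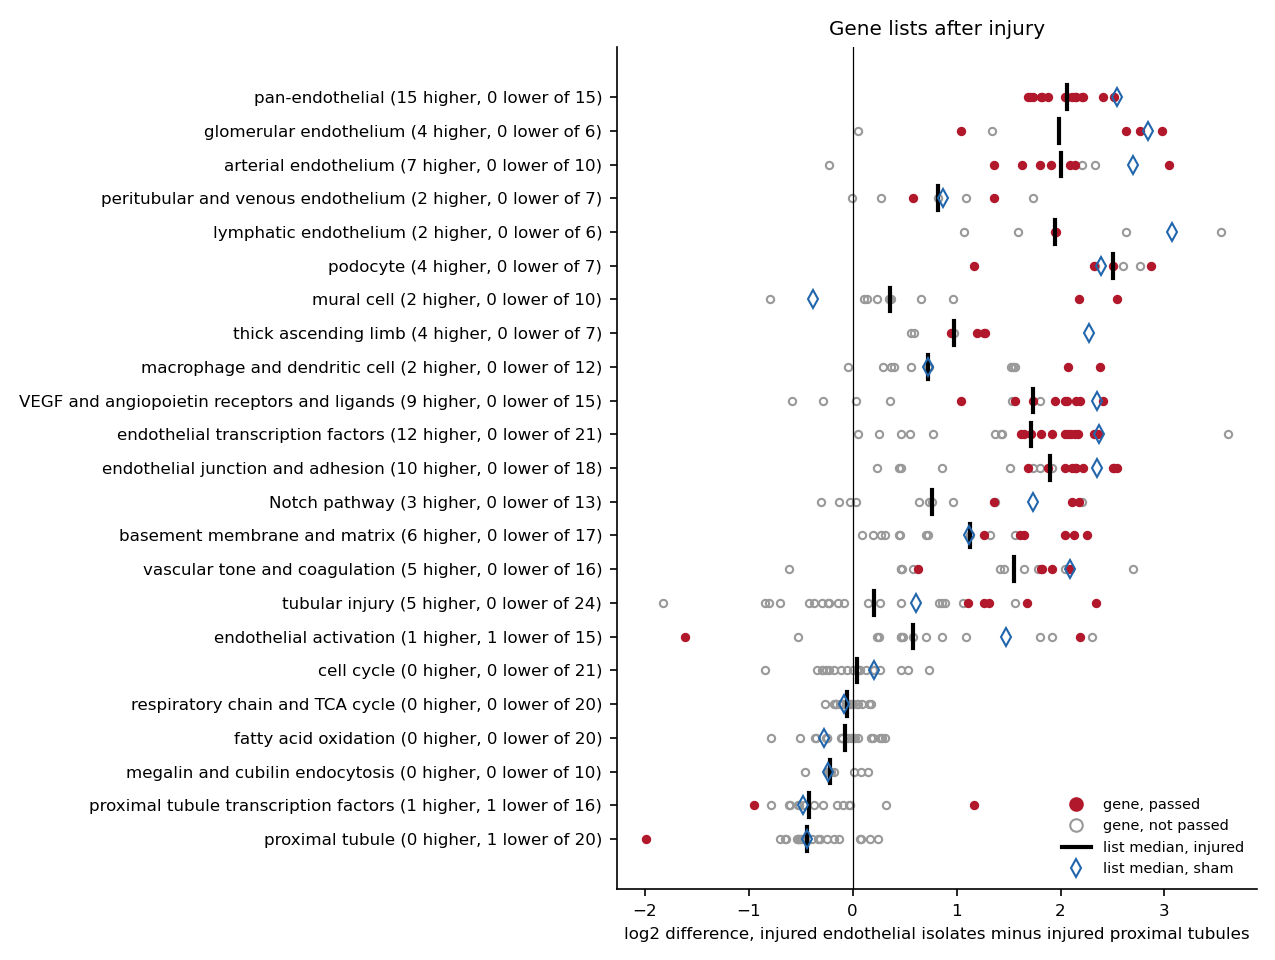
Log2 difference, injured endothelial isolates minus injured proximal tubules, of each tested member of 23 gene lists: red points passed the test, open grey points did not, black bars are list medians in injured kidneys and blue diamonds list medians in sham kidneys. Endothelial lists have medians up to 2.06 and proximal tubule lists have medians below 0, and the thick ascending limb median is 0.97 in injured against 2.27 in sham kidneys.

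Some markers of podocytes and mural cells were higher in the endothelial isolates beside the vascular genes, and their part in those results was not tested. Of 7 podocyte markers 4 were higher and none lower, all 7 differences being positive (median 2.51), and their summed level was 697 to 1674 CPM in endothelial isolates and 43.3 to 419 CPM in tubules, without overlap. Podxl, podocalyxin, which podocytes and endothelium share, had 355, 671 and 950.4 CPM in endothelial isolates and 28.6, 114 and 228 CPM in tubules (2.51 ± 0.51, edgeR adjusted p 0.010). Synpo, the actin-binding synaptopodin, had 77.5, 151 and 184 CPM in endothelial isolates and 3.60, 30.1 and 49.2 CPM in tubules (2.33 ± 0.53, adjusted p 0.018). Clic3 (2.87 ± 0.67) passed as well, and the slit diaphragm gene Nphs1 (2.60) did not. Of 10 mural cell markers Des, desmin (2.54 ± 0.56, adjusted p 0.015), and Pdgfrb, the PDGF receptor of pericytes and mesangial cells (2.17 ± 0.59, adjusted p 0.040), were higher and none lower (median 0.36), with a summed level of 149 to 242 CPM in endothelial isolates and 47.1 to 240.4 CPM in tubules. The other 8 mural cell markers had log2 differences of −0.79 to 0.96 and did not pass, and the list's median was −0.38 in sham kidneys. The podocyte count was 1 without male tubule replicate 2. The mural count was 1 without female endothelial replicate 1 or 2, male endothelial replicate 2, female tubule replicate 1 or 3, or male tubule replicate 2 or 3.

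Thick ascending limb genes were also higher in the endothelial isolates. Umod, the uromodulin of that segment, had 7691, 8678 and 12007 CPM in endothelial isolates and 1741, 4283 and 5338 CPM in tubules (1.19 ± 0.27, edgeR adjusted p 0.016). At 4042 ± 652 TPM in endothelial isolates and 1633 ± 536 TPM in tubules (SD, n = 6 each) it had the highest TPM in endothelial isolates of the protein-coding genes called higher there. Cldn16, a claudin of magnesium reabsorption, had 20.9, 21.9 and 26.1 CPM in endothelial isolates and 6.00, 8.72 and 17.0 CPM in tubules (1.27 ± 0.20, adjusted p 0.0041). Both genes stood higher in every endothelial isolate than in any tubule library. Slc12a1, the sodium-potassium-chloride cotransporter NKCC2, passed with overlap (1.26 ± 0.33, adjusted p 0.034), as did Ppp1r1a (0.95 ± 0.23). In all 4 of 7 markers were higher and none lower (median 0.97), and their summed level was 9404 to 17861 CPM in endothelial isolates and 2357 to 9533 CPM in tubules. The count was 2 without female tubule replicate 1 or 3 or male tubule replicate 1. No marker of the distal convoluted tubule (5 tested), principal cells (7) or intercalated cells (6) passed, with medians of −0.37, 0.12 and −0.21. The distal convoluted tubule median was −1.04 in females and 0.25 in males. Its summed level in females was 425 to 503 CPM in endothelial isolates and 888 to 990 CPM in tubules, without overlap. In males it was 330 to 1014 CPM in endothelial isolates and 160 to 628 CPM in tubules, with overlap.

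Few blood cell markers passed, as few of all genes did (3.9% higher and 0.797% lower), and those that passed were higher. Of 12 macrophage and dendritic cell markers Mrc1, the mannose receptor, had 8.39, 16.7 and 23.5 CPM in endothelial isolates and 1.44, 2.82 and 5.34 CPM in tubules (2.38 ± 0.40, edgeR adjusted p 0.0050), and the lysozyme gene Lyz2 differed by 2.07 ± 0.52 (adjusted p 0.027). The list had a median of 0.73 and a summed level of 101 to 451 CPM in endothelial isolates and 59.8 to 370.0 CPM in tubules. Of 11 lymphocyte markers Cd79a, a B cell receptor chain, passed (3.60 ± 0.95, adjusted p 0.038) at no more than 1.17 CPM in any injured library. The lymphocyte median was 2.99 (1.81 in females and 3.97 in males), on summed levels of 2.65 to 19.5 CPM in endothelial isolates and 0.409 to 1.69 CPM in tubules. The highest of these sums was male endothelial replicate 2, and the other endothelial isolates had 2.65 to 5.57 CPM. No neutrophil (9 tested), platelet (5) or erythroid (6) marker passed, with medians of 1.54, 0.80 and 1.00. The macrophage count was 1 without female endothelial replicate 1 or 2, male endothelial replicate 3, female tubule replicate 1 or 3, or male tubule replicate 1 or 2. The lymphocyte count was 0 without female endothelial replicate 1 or 2, male endothelial replicate 3, female tubule replicate 1, 2 or 3, or male tubule replicate 1, 2 or 3.

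Calls among fibroblast markers went toward the tubules, at low levels. Of 6 tested 2 were lower in the endothelial isolates and none higher (median −0.79): Dcn, the proteoglycan decorin, with 0.815, 1.23 and 1.48 CPM in endothelial isolates and 1.41, 2.81 and 4.83 CPM in tubules (−1.23 ± 0.31, edgeR adjusted p 0.030), and Col3a1, a fibrillar collagen, with 0.0209, 1.03 and 1.92 CPM in endothelial isolates and 1.39, 3.53 and 15.7 CPM in tubules (−2.53 ± 0.71, adjusted p 0.045). The sets overlapped for both genes. The 4 markers that did not pass had log2 differences of −2.67 to 1.87, 2 of them positive, and in sham kidneys 2 of the 6 markers were higher and 1 lower. The count was 0 without female endothelial replicate 1 or 2, male endothelial replicate 1, female tubule replicate 1, or male tubule replicate 1 or 2, and 1 without female endothelial replicate 3, female tubule replicate 2 or 3, or male tubule replicate 3.

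Proximal tubule genes parted the isolations little. Of the 20 markers 1 was lower and none higher, beside 0.797% of all genes, and the median log2 difference was −0.44. That gene was Kap, the androgen-regulated protein of the kidney, with 47.1, 1901 and 7910.2 CPM in endothelial isolates and 251, 2766 and 19839 CPM in tubules (−1.99 ± 0.43, edgeR adjusted p 0.014) and wide overlap over both sexes. Females had 78.3 to 253 TPM in endothelial isolates and 437 to 1651 TPM in tubules, without overlap. Males had 6520 to 11750 TPM in endothelial isolates and 7757 to 24730 TPM in tubules, with overlap. Cubn, the receptor cubilin that works with megalin, had 153, 286 and 933 CPM in endothelial isolates and 216, 479 and 761 CPM in tubules (−0.25 ± 0.23, adjusted p 0.69). Hnf4a, a transcription factor of the differentiated proximal tubule, had 116, 526 and 569 CPM in endothelial isolates and 265, 746 and 997 CPM in tubules (−0.52 ± 0.30, adjusted p 0.42). A missed threshold does not show equal levels, and 16 of the 20 differences were negative. The count was 3 without male tubule replicate 3, and 5 without male endothelial replicate 2. Without both of these libraries 2 markers were higher and 6 lower.

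The functional lists of the tubule gave few calls, as did all tested genes, of which 3.9% were higher and 0.797% lower. No gene of megalin and cubilin endocytosis (10 tested), sodium-coupled and phosphate transport (15), fatty acid oxidation (20), vitamin D and steroid enzymes (10), glutathione and peroxisome (12), epithelial junctions and keratins (17) or the respiratory chain and TCA cycle (20) passed, with medians from −0.33 to −0.06. Across the fits that left out 1 library, none of these lists had more than 2 calls. Slc22a7, the organic anion transporter OAT2, was lower, with 1.44, 3.95 and 11.6 CPM in endothelial isolates and 4.17, 24.2 and 73.8 CPM in tubules (−2.68 ± 0.63, edgeR adjusted p 0.021), 1 of 16 organic ion transporters (median −0.20). G6pc, the phosphatase that releases glucose, was lower (−0.70 ± 0.19, adjusted p 0.044), 1 of 10 genes of gluconeogenesis (median −0.20). Pipox, a sarcosine and pipecolate oxidase (−0.60 ± 0.15, adjusted p 0.023), and Hpd, of tyrosine breakdown (−1.34 ± 0.38, adjusted p 0.048), were lower, 2 of 18 genes of amino acid metabolism (median −0.48).

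Enpep, aminopeptidase A, which podocytes and tubules carry, was higher (0.61 ± 0.15, edgeR adjusted p 0.022), 1 of 17 genes of amino acid and peptide transport (median −0.22). Of 16 tubule transcription factors Lhx1 was lower and Irx1, a factor of the intermediate nephron, higher (1.17 ± 0.29, adjusted p 0.028; median −0.42). These calls rested on single libraries. The organic ion count was 0 without female endothelial replicate 1 or 2 or male tubule replicate 2, and the peptide transport count 0 without female endothelial replicate 1 or 2, male endothelial replicate 3, female tubule replicate 1 or 3, or male tubule replicate 2. The gluconeogenesis count was 0 without female endothelial replicate 1 or 2, male endothelial replicate 1 or 3, female tubule replicate 1, 2 or 3, or male tubule replicate 1 or 3. The amino acid metabolism count was 0 without female endothelial replicate 2, male endothelial replicate 1 or 3, female tubule replicate 1 or 3, or male tubule replicate 1 or 2; 1 without female endothelial replicate 1 or 3 or female tubule replicate 2; 5 without male endothelial replicate 2 or male tubule replicate 3. The transcription factor count was 0 higher and 1 lower without female endothelial replicate 2, male endothelial replicate 3, female tubule replicate 1 or 3, or male tubule replicate 1 or 2, and 1 higher and 3 lower without male endothelial replicate 2.

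Most genes of tubular injury did not pass between the isolations, though calls were more frequent than over all genes. Havcr1, the injury molecule KIM-1, had 4.58, 35.6 and 282 CPM in endothelial isolates and 7.82, 30.1 and 324 CPM in tubules (0.27 ± 0.66, edgeR adjusted p 0.92). Lcn2, the lipocalin NGAL, had 6.88, 139 and 765 CPM in endothelial isolates and 2.71, 109 and 528 CPM in tubules (1.06 ± 0.55, adjusted p 0.35). Spp1, osteopontin, had 2065, 3828 and 11425 CPM in endothelial isolates and 1865, 2168 and 3875 CPM in tubules and passed with overlap (1.11 ± 0.23, adjusted p 0.011). Of 24 tubular injury genes 5 were higher and none lower (median 0.20), beside 3.9% and 0.797% of all genes. They were Spp1, Vim, Anxa1 (1.68 ± 0.44), Anxa2 (1.27 ± 0.30) and Cp. Vim, vimentin, which vascular and mesenchymal cells also carry, had 90.9, 134 and 167 CPM in endothelial isolates and 4.39, 30.2 and 41.1 CPM in tubules, without overlap (2.34 ± 0.48, adjusted p 0.011). The list's median was 0.79 in females and −0.57 in males, and its summed level was 2964 to 16323 CPM in endothelial isolates and 2799 to 11805 CPM in tubules. The count was 2 without female tubule replicate 1; 3 without female endothelial replicate 1 or 2, female tubule replicate 3, or male tubule replicate 2; 5 higher and 3 lower without male tubule replicate 3. Without male endothelial replicate 2 and male tubule replicate 3, 4 of these genes were higher and 8 lower.

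In the endothelial activation list 2 of 15 genes passed, Angpt2 higher and Cyr61 lower (median 0.58). Cyr61, a matricellular protein and target of YAP, had 42.3, 81.4 and 205 CPM in endothelial isolates and 119.8, 319.8 and 595 CPM in tubules (−1.61 ± 0.33, edgeR adjusted p 0.011). Of 19 chemokines and cytokines Csf1, the macrophage growth factor, had 10.6, 22.8 and 31.6 CPM in endothelial isolates and 2.00, 7.13 and 13.3 CPM in tubules (1.72 ± 0.36, adjusted p 0.012), the endothelial chemokine Cx3cl1 was also higher (0.68 ± 0.18, adjusted p 0.038), and none was lower (median 0.26). No gene of interferon response and MHC class I (20 tested), MHC class II (7) or the cell cycle (21) passed, with medians of 0.66, 0.25 and 0.04. The activation count was 0 higher and 1 lower without female endothelial replicate 1 or 2, male endothelial replicate 2, female tubule replicate 1 or 3, or male tubule replicate 2. The chemokine count was 1 without female endothelial replicate 1 or 2, male endothelial replicate 1 or 3, female tubule replicate 1 or 3, or male tubule replicate 1 or 2.

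Immediate early and heat shock genes form lists that were chosen after the data had been seen. Of 18 immediate early genes 16 had a negative difference (median −0.71) and 1 passed, the AP-1 subunit Fos, with 298, 397 and 768 CPM in endothelial isolates and 693, 1094 and 1528 CPM in tubules (−1.30 ± 0.34, edgeR adjusted p 0.035). Of 16 heat shock genes the inducible HSP70 genes Hspa1a and Hspa1b were higher and none lower (median −0.06). Hspa1a had 192, 278 and 527 CPM in endothelial isolates and 57.3, 73.6 and 139 CPM in tubules (1.99 ± 0.39, adjusted p 0.0088). Hspa1b had 307, 431 and 778 CPM in endothelial isolates and 80.4, 102 and 171 CPM in tubules (2.15 ± 0.38, adjusted p 0.0054). Neither pair of sets overlapped, and in sham kidneys the differences were 2.45 and 2.75. The genes are nearly identical in sequence, so the division of reads between them is uncertain. The immediate early count was 0 without female endothelial replicate 1, 2 or 3, male endothelial replicate 1 or 3, female tubule replicate 1, 2 or 3, or male tubule replicate 1 or 2; 3 without male tubule replicate 3; 6 without male endothelial replicate 2.

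The promoters of both genes are shown because they share letters of the heat shock element. Capitals mark GAANNTTC, which reads the same on both strands, in RefSeq windows of 300 bases on GRCm38.p6.
Hspa1a (chr17:34972107-34972406, minus strand): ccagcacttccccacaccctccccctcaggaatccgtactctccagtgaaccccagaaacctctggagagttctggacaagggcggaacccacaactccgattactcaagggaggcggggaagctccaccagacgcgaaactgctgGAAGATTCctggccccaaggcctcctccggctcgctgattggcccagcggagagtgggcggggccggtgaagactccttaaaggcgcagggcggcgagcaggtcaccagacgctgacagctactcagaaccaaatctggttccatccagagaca
Hspa1b (chr17:34959189-34959488, minus strand): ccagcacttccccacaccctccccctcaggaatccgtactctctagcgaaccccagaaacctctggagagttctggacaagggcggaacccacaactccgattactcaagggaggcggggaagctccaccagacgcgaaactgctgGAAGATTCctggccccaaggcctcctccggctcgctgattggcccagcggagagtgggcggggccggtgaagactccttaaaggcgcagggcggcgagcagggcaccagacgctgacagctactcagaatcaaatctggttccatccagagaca
Each window holds 1 match. Of the 16 heat shock genes 13 have an entry, and 9 of these 13 hold the letters, as do 7.86% of all promoters. Most genes of the list that hold them did not pass between the isolations.

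Among protein-coding genes called, those with the highest TPM differed modestly. Toward the endothelial isolates Umod was followed by Spp1 at 2996 ± 2175 TPM in endothelial isolates and 1119.7 ± 408 TPM in tubules (SD, n = 6 each), and by Aif1l, Wfdc2, Ly6a, Gnai2, Tmsb4x, Cd81, Ptov1 and Slc12a1. Tmsb4x, the actin-sequestering thymosin beta 4, had 271, 288 and 300.2 CPM in endothelial isolates and 88.6, 116 and 166 CPM in tubules, without overlap (1.29 ± 0.20, edgeR adjusted p 0.0041). Toward the tubules Kap had 4852 ± 5421 TPM in endothelial isolates and 9760.1 ± 11374 TPM in tubules, and mt-Nd6, a subunit of respiratory complex I, had 2850.1 ± 591 TPM in endothelial isolates and 4235 ± 544 TPM in tubules (SD, n = 6 each). The SDs of Kap span its low female and high male levels. Rida, Fos, Sugct, Fmo2, Cryz, Calml4 and Ldhd followed, with log2 differences of −1.30 to −0.53. Of these 9 genes toward the tubules, Cryz, a quinone reductase, was the one whose libraries did not overlap by CPM, with 295, 319 and 344 CPM in endothelial isolates and 350.1, 415 and 642 CPM in tubules. By TPM its libraries overlapped, while those of mt-Nd6 did not, with 2142 to 3566 TPM in endothelial isolates and 3754 to 4918 TPM in tubules.

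Most genes that parted the injured isolations also parted the sham isolations. In sham kidneys 2208 genes were higher (10.4% of all genes) and 395 lower (1.86%) in endothelial isolates, 12.3% together. Of the 995 genes called in injured kidneys 849 were called in sham kidneys too, 747 higher and 102 lower and none with the opposite sign. That is 85.3% of the genes called in injured kidneys and 32.6% of those called in sham kidneys. The 2 comparisons share no library, but both come from the same fit with a shared spread, so their calls are not independent. The sham count was 2321 to 3075 when single injured libraries were left out. A further 79 higher and 67 lower genes were called in injured kidneys alone. They are not shown to be particular to injury, because no gene passed the test of the injured minus sham difference by edgeR (0%; smallest adjusted p 0.40; 1011 genes, 4.77%, at an unadjusted p under 0.05), while DESeq2 called 4 with a larger and 20 with a smaller difference. Without male endothelial replicate 2 and male tubule replicate 3 that test called 2607 genes. As described above, that setting was chosen after seeing the data. It sets male endothelial isolates low in Cdkn1a against male tubule libraries high in it, so injury state and isolation cannot be told apart there.

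The medians of several lists lay closer to 0 in injured kidneys. The pan-endothelial median was 2.06 in injured and 2.54 in sham kidneys, the arterial median 2.00 in injured and 2.70 in sham kidneys, and the thick ascending limb median 0.97 in injured and 2.27 in sham kidneys. The podocyte median was 2.51 in injured and 2.39 in sham kidneys, and the proximal tubule median was −0.44 in injured and −0.44 in sham kidneys. Umod differed by 1.19 in injured and 2.69 in sham kidneys; its mean level was 9063 CPM in injured and 8239.7 CPM in sham endothelial isolates, and 4001 CPM in injured and 1314 CPM in sham tubules. Among the 12 leading genes Slc14a2 (2.00, adjusted p 0.21 by edgeR), Shisa3 (2.38, adjusted p 0.054) and Sema3e (1.99, adjusted p 0.099) did not pass in sham kidneys, nor did Spp1 (0.57, adjusted p 0.14).

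**Figure D5:**
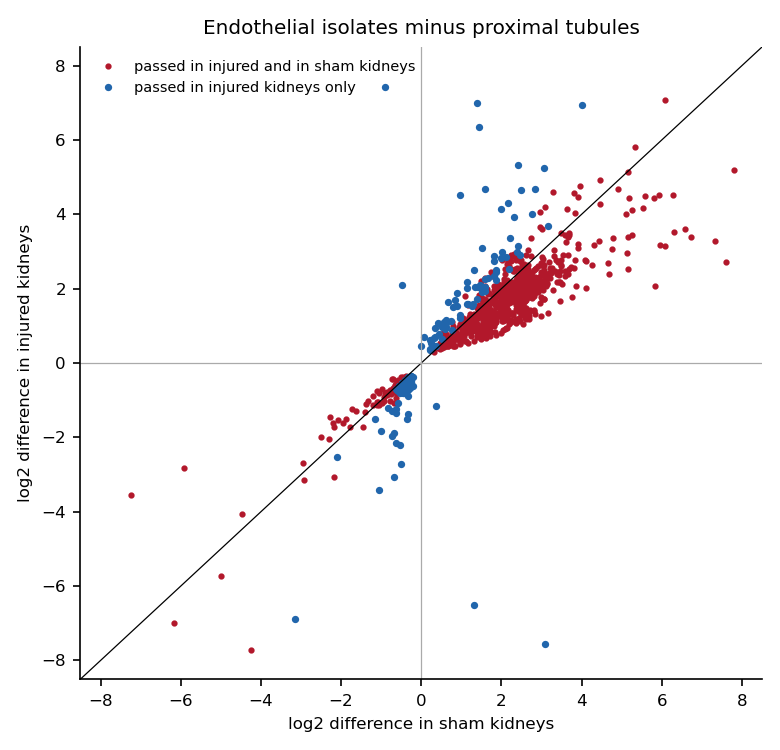
Log2 difference, endothelial isolates minus proximal tubules, in injured kidneys (vertical) and sham kidneys (horizontal) for the 995 genes called in injured kidneys: red for the 849 also called in sham kidneys, blue for the other 146. The diagonal marks equal differences, and all red points have the same sign on both axes.

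Fewer genes passed within each sex. In males alone 106 genes were higher (0.5% of all genes) and 29 lower (0.137%), 0.637% together. In females alone none passed by edgeR (0%; smallest adjusted p 0.066; 1532 genes at an unadjusted p under 0.05), while DESeq2 called 265 higher and 43 lower. Over the 4 injured groups alone, with the number in the sample names as a replicate block, 179 genes were higher and 7 lower in females, against 0 in the same libraries without the block; the deviations of same-numbered female libraries correlated at 0.373, 0.17 and 0.358. No gene passed the test of the male minus female difference by edgeR (0%; 780 genes at an unadjusted p under 0.05), and DESeq2 called 9, so the unequal counts do not show that the sexes differ. The pan-endothelial median was 2.04 in males and 2.00 in females. Stk26, a kinase, was called in males with a log2 difference of 2.45, against 0.69 in females, and over both sexes it was higher by 1.57 ± 0.20 (edgeR adjusted p 0.0015).

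Other genes called in males were Lfng, a glycosyltransferase that modifies Notch (3.04), Cd38 (2.60), Gimap1 (2.77) and Icam2 (3.00), all higher, and G0s2, an inhibitor of lipolysis (−2.37), Id1 (−1.79), Osgin1 (−1.25) and Mlxipl, a carbohydrate-responsive transcription factor (−1.19), all lower, as log2 differences in males. The male count was 1751 without male tubule replicate 3 and 1418 without male endothelial replicate 2. It was 23 and 5 without male endothelial replicate 1 or 3, and 3 and 4 without male tubule replicate 1 or 2. Through the spread shared by all groups it was also 37 without female endothelial replicate 1, and 29, 36 and 207 without female tubule replicates 1, 2 and 3. The female count was 6 without male endothelial replicate 2 and 3 without male tubule replicate 1.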

How the data were processed

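Poly-A libraries of kidney RNA were sequenced on a NextSeq 500, per the labels. The authors' deposited files give, per transcript, estimated counts and TPM from Salmon 0.13.1 on GRCm38, per the submitters' processing notes. The estimated counts of a gene's transcripts were added up and rounded to whole numbers, and the deposited TPM values were summed per gene; 53355 of 53392 genes were matched to GENCODE M21. The sham male tubule sample sequenced as 2 libraries (replicate 3, the second called library B) was summed, although these were unlike each other. Scored by chi-square over its degrees of freedom, as for replicates above, they stood 255.2 apart. The first library stood 491 and 598.4 from sham male tubule replicates 1 and 2, and library B 101.3 and 98.53. No fit left out the first library. Its effect on the sham counts, the injured minus sham test and the shared spread was not tested.

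All 23 libraries in 8 groups were fitted in edgeR 4.0.16 (R 4.3.3) with TMM scaling and the quasi-likelihood test, after filterByExpr (minimum count 10, minimum total 15), with Benjamini-Hochberg adjustment over 21206 genes and a threshold of 0.05. Total counts were 41703814 to 54354257 per injured library. Replicates of an injured group differed by a chi-square of 25.7 to 534 per degree of freedom, so read depth alone did not set the precision. DESeq2 1.42.0, other scaling, filtering, length offsets, sample sets, a replicate block and single-library omissions were tried, and the code was tested on simulated data.

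Named genes were, by rule, the 12 protein-coding genes with the largest differences in each direction among those called without overlap whose mean in the higher isolation reached 5 CPM, up to 4 members per list with the smallest adjusted p and up to 2 called the other way, the 10 called genes with the highest TPM per side, and 14 fixed genes. Other genes named were chosen after their values were seen. Some genes that the rule selects are not reported here. The isolations compared and the gene lists were chosen with earlier results of these data known. Promoters came from RefSeq for GRCm38.p6.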

Additional observations from a re-analysis of the deposited data

Results flagged for a closer look

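Cldn1, a claudin of tight junctions, stood on opposite sides of the isolation in males and females. It had 26.8, 22.8 and 29.7 CPM in male endothelial isolates, all below the 64.4, 71.1 and 44.1 CPM of male tubules, and 25.9, 22.9 and 22.5 CPM in female endothelial isolates, all above the 21.2, 21.1 and 21.3 CPM of female tubules. The log2 difference was −1.18 in males and 0.16 in females, a male minus female difference of −1.34, which did not pass (edgeR adjusted p 1.00). All of the male tubule levels were above the female tubule levels, and the endothelial levels of males and females overlapped.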

How the results depend on the processing

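The direction of most named genes held, and the counts of genes called did not. DESeq2 called 1874 genes between the injured isolations, 308 within females, 1345 within males, 9 for the male minus female difference and 24 for injured minus sham. Length offsets gave 579 genes and 10 within males. Without a filter on low counts 120 genes passed within females, 478 within males and 1 for injured minus sham. Leaving out library B of sham male tubule replicate 3 gave 61 within males. That fit kept the first library of this sample, which stood farther than library B from sham male tubule replicates 1 and 2. Leaving out 1 library gave 399 to 1622 genes between the injured isolations, 0 to 6 within females and 3 to 1751 within males. Without male endothelial replicate 2 and male tubule replicate 3 together, chosen after seeing the data, the counts were 5425 injured, 14 within females, 6255 within males, 4058 for male minus female, 2607 for injured minus sham and 4205 in sham kidneys. Title numbers shared by endothelial and tubule libraries were not taken to pair them, since 1 of the 6 pairs did not correlate above 0.1. Deviations from group means over 10000 genes correlated at 0.373, 0.17 and 0.358 in the female pairs and at −0.833, 0.641 and 0.894 in the male pairs. Of the 6 endothelial libraries 3 correlated best with their own number. These correlations cannot decide whether a repeated number is a repeated mouse. In a group of 3, a library that stands apart sets the signs of the other deviations. Over the 4 injured groups alone 1335 genes passed with the replicate block (186 within females, 442 within males), and 1353 without it (0 within females, 471 within males). Without title number 3 (male replicate 1 of each isolation), also chosen after seeing the data, 487 passed in the fit of all groups (1 within females, 5 within males); over the injured groups alone 3019 passed with the block (956 within females, 1795 within males) and 669 without it (0 within females, 0 within males). Of the 154 genes whose tests the text gives, none lost its call in DESeq2, 38 did with length offsets and 5 to 59 did without 1 library. Named genes that changed sign did not pass in those fits. Without 1 library Havcr1 ranged over −0.14 to 0.70, Icam1 over −0.26 to 0.42, Sele over −0.33 to 2.50 and Selp over −0.18 to 2.78; Havcr1 was −0.14 without female endothelial replicate 1 and −0.01 without male endothelial replicate 1, and the other 3 were negative without male endothelial replicate 2. Without title number 3 Havcr1 was −0.27 in the fit of all groups, and over the injured groups alone −1.20 with the block and −0.35 without it. Without both male endothelial replicate 2 and male tubule replicate 3, Icam1 was −0.44, Sele −0.61, Selp −0.47, Hnf4a 0.04 and Lrp2 0.06. The causes were not tested. With 3 libraries per sex and isolation, and levels under 1 CPM for many leading genes in tubules, small differences could not be resolved.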
